A study of Homo sapiens with 11 samples.

Results

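A set of 10 genes known as targets of the let-7 microRNAs in early embryonic and germ cell tumour cells were examined, namely HMGA1, HMGA2, IGF2BP1, IGF2BP2, IGF2BP3, CDK6, PLAGL2, MYCN, TRIM71 and ARID3B. Their probes were all those whose gene symbol in the platform's annotation was one of these names, which gave 16 of the 48803 probes on the array. Of these, 9 probes, of 8 genes, lay above background, among 14338 such probes and 9854 such genes in all. A probe counted as above background where 5 or more arrays gave it a detection p below 0.01. HMGA2 and IGF2BP1 had no probe that passed.

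The samples were 11 cultures of NT2D1, a human embryonal carcinoma line whose cells resemble pluripotent cells of the early embryo, with 1 bead array per sample. All carried TetR3, a tetracycline repressor, and an inducible short hairpin RNA against L1TD1, so the controls held the same vectors. The 5 non-induced samples received no doxycycline and the 6 dox-induced samples did, and all were taken on day 6. The titles carry the prefix 1 or 5, which the column headers give as shRNA1 and shRNA5. Non-induced samples 1 to 3 and dox-induced samples 1 to 3 have prefix 1, and non-induced samples 4 and 5 and dox-induced samples 4 to 6 have prefix 5. The design text names 6 clones with a sample of each kind, and 1 sample that the submitters excluded. No sample had doxycycline without the L1TD1 hairpin, so an effect of the drug and an effect of the knockdown cannot be told apart.

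Let-7 microRNAs bind messenger RNAs through the seed at their 5′ end and lower the level or the translation of those messages. They are abundant in differentiated cells and scarce in pluripotent cells, where LIN28A and LIN28B bind the let-7 precursors and hold back their maturation. A known route, described for LIN28A, is uridylation of the precursors by TUT4 and TUT7 and their decay by DIS3L2. Targets of this kind are named oncofetal, since several of them are active in the embryo, fall as let-7 rises, and return in some tumours. L1TD1 is an RNA-binding protein of pluripotent cells that is found together with LIN28 in ribonucleoprotein particles, and the question here is whether the let-7 targets moved together when L1TD1 was knocked down.

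The mature sequences are shown because the shared seed is what makes these genes a group. In the RefSeq annotation of GRCh38.p14 the 5p arms of the family had 9 distinct forms and 1 seed. Bases 2 to 8, the seed, are in capitals, and each sequence runs 5′ to 3′. The let-7 microRNAs themselves were not measured on this array.
let-7a: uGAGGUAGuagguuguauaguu
let-7b: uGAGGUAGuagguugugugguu
let-7c: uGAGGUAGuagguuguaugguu
let-7d: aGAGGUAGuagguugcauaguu
let-7e: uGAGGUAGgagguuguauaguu
let-7f: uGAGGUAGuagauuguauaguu
let-7g: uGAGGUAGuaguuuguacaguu
let-7i: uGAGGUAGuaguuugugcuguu
miR-98: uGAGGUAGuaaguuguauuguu

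Outside the seed, let-7c, let-7e and let-7f each differed from let-7a at 1 base, while let-7i differed at 4. LIN28 proteins contact the loop of the precursor, where the letters GGAG form the best known contact. GGAG, searched on the transcribed strand of the hairpin between its arms, was present in 8 of the 11 family hairpins that had both arms annotated, and in 60 of 739 human hairpins (8.12%). It was not among these letters in the hairpins of let-7a-3, let-7b and miR-98. The hairpins of let-7a-1 (chr9:94175957-94176036, plus strand), let-7g (chr3:52268278-52268361, minus strand) and let-7b (chr22:46113686-46113768, plus strand) show the difference, with GGAG in capitals.
let-7a-1: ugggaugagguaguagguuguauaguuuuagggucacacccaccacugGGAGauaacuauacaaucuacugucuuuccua
let-7g: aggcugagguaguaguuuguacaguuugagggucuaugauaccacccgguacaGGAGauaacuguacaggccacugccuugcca
let-7b: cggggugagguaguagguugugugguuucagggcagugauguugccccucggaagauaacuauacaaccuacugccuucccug

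Levels are log2 intensities after background correction and quantile normalization, and differences are dox-induced minus non-induced. The number of arrays limits the precision, and no label says that samples with different numbers were separate cultures beyond the clones of the design text. The mean raw intensity was 427 ± 29.2 (SD, n = 5) on the non-induced arrays and 373 ± 26.8 (SD, n = 6) on the dox-induced arrays (exact two-sided permutation test, p = 0.0152). It therefore moved with induction before normalization, and its part in the results was not tested. Between 13301 and 15127 probes were detected per array, and correlations between arrays lay between 0.939 and 0.988. Non-induced sample 3 and dox-induced sample 5 deviated alike. Their deviations from their group means correlated at 0.537 over the probes, against at most 0.4 for any other pair across the groups. This does not show that both were outliers. Their median correlations with the other arrays were 0.9625 and 0.9703, and that of dox-induced sample 6 was 0.9642. The L1TD1 probe was lower in each induced sample than in any non-induced sample, where 2.16% of all probes had groups that did not overlap, in either direction. It was at 53.4% of the non-induced level (log2 difference -0.91 ± 0.18, SE, limma adjusted p = 0.0753, exact permutation p = 0.00433). It passed within title prefix 1 (-0.98 ± 0.23, SE, limma adjusted p = 0.0334), where 4.87% of all probes passed. The L1TD1 probe did not pass within prefix 5 (-0.87 ± 0.25, SE, limma adjusted p = 0.785, limma unadjusted p = 0.00427), where 0% of all probes passed. The difference of these effects was 0.11 ± 0.34 (SE, limma adjusted p = 0.916). Of 9 embryonal carcinoma markers, 8 had a probe and all 8 were detected on all 11 arrays. Of 15 markers of differentiated cells, 13 had a probe, 3 passed the detection filter (COL1A1, COL1A2 and DCX) and 7 were detected on no array. In bulk RNA, fewer cells of a kind and less RNA per cell cannot be told apart.

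None of the let-7 targets passed the adjusted threshold with induction. Their limma adjusted p-values lay between 0.182 and 0.852 over the 9 probes, where 6 of all 14338 probes passed (0.0418%). That number of 6 was 0 without non-induced sample 1, 3 or 4 or without dox-induced sample 1, 3 or 6, it was 1 without non-induced sample 5, and it was 26, 16 and 21 without dox-induced samples 2, 4 and 5, with no let-7 target past the threshold in any of these fits. Of the 8 measured genes, 7 had a difference below 0, against 48.3% of all measured genes, and the median difference was -0.17 against 0.0098 over all genes. CDK6 and PLAGL2 were past an unadjusted p of 0.05, both lower, where 16.2% of all probes were past it and 8.31% were past it and lower. The medians of both lists of cell type markers were also below 0. The 8 embryonal carcinoma markers had a median difference of -0.05, with 5 lower and 3 higher, and the sum of their linear intensities ran from 37122 to 44807 without induction and from 38042 to 46940 with it. The 3 measured markers of differentiated cells were all lower, with a median of -0.45 and sums from 1279 to 2319 and from 513 to 2185, and none of these markers passed the adjusted threshold. Their part in the let-7 target values was not tested. With no let-7 targets called, the counts describe the group and do not show that it moved.

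**Figure D1:**
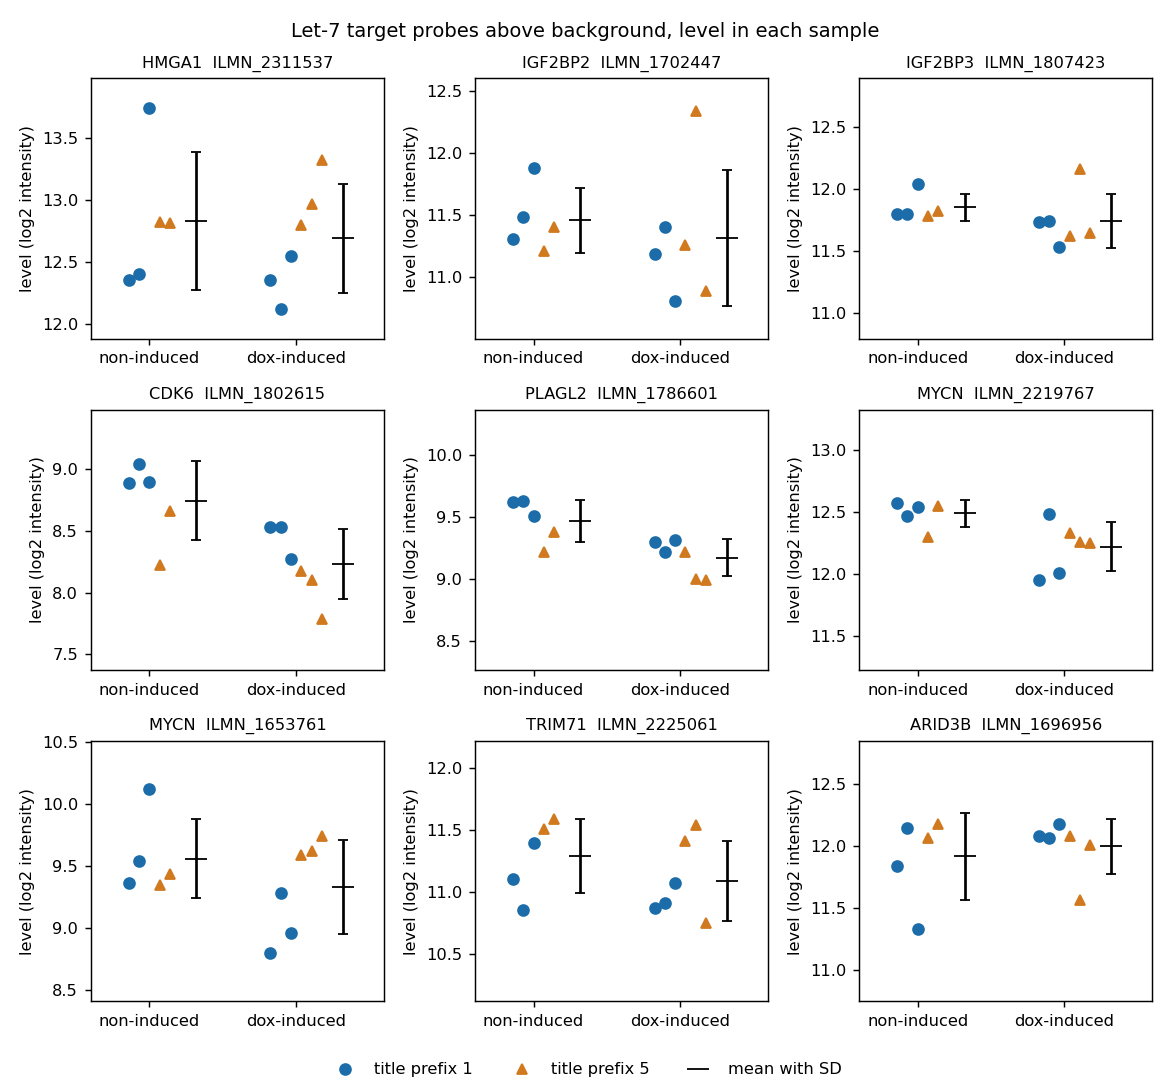
Level (log2 intensity) of the 9 let-7 target probes above background in each sample, with blue circles for title prefix 1, orange triangles for prefix 5 and black bars for the mean with SD of 5 non-induced and 6 dox-induced samples. All panels span the same number of log2 units, and in every panel the groups overlap; CDK6, PLAGL2 and the brighter MYCN probe sit lowest with induction relative to their spread.

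Among the regulators of growth and the cell cycle, CDK6 had the lowest difference. CDK6 is the kinase that, with D-type cyclins, phosphorylates RB1 and lets cells leave G1. Its levels were 8.88, 9.04, 8.89, 8.22 and 8.66 in non-induced samples 1 to 5, and in the induced samples they ran from 7.79 through a median of 8.22 to 8.53. The induced samples were low, with 3 of 6 below all non-induced samples, and the groups overlapped because non-induced sample 4 was low as well. The mean went from 8.74 ± 0.32 (SD, n = 5) to 8.23 ± 0.28 (SD, n = 6), a log2 difference of -0.51 ± 0.17 (SE). That is 70.4% of the non-induced level (95% interval 54.4 to 91.1%), with a limma adjusted p of 0.182, an unadjusted p of 0.011 and an exact permutation p of 0.026. The induced sample was lower in all 5 pairs with the same replicate number, by 0.06 in pair 4 and by between 0.35 and 0.62 in the others. No label states that the number pairs the samples.

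MYCN, the MYC family transcription factor best known from neuroblastoma, had 2 probes above background. On the brighter probe the non-induced levels were 12.57, 12.47, 12.54, 12.30 and 12.55, and the induced levels ran from 11.95 through a median of 12.26 to 12.48. On this probe 4 of 6 induced samples were below all non-induced samples, and dox-induced samples 2 and 4 were within the non-induced range. Its difference was -0.27 ± 0.13 (SE), or 82.8% of the non-induced level, with a limma adjusted p of 0.313 and an exact permutation p of 0.0216. On the dimmer probe the non-induced levels were 9.36, 9.54, 10.12, 9.35 and 9.44, and the induced levels ran from 8.80 through 9.44 to 9.74. Here the groups overlapped widely, and the low induced samples were those of prefix 1. The dimmer probe's difference was -0.23 ± 0.20 (SE, limma adjusted p = 0.592, exact permutation p = 0.31), so both probes were below 0 and neither passed.

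PLAGL2 is a zinc finger transcription factor of the PLAG family, known as a growth-promoting gene in tumours. Its non-induced levels were 9.62, 9.63, 9.51, 9.22 and 9.38, and its induced levels ran from 8.99 through 9.22 to 9.31. The induced samples were low, 4 of 6 of them below all non-induced samples, while non-induced sample 4 was as low as the induced median. The difference was -0.30 ± 0.13 (SE), or 81.3% of the non-induced level (95% interval 67.3 to 98.1%), with a limma adjusted p of 0.26, an unadjusted p of 0.0328 and an exact permutation p of 0.0152. All 5 same-numbered pairs were lower, by 0.01 in pair 4 and by between 0.20 and 0.41 in the others. CDK6 and PLAGL2 were the only member probes lower in all 5 pairs. The count was 4 for HMGA1, IGF2BP3 and TRIM71, 3 for IGF2BP2 and both MYCN probes, and 2 for ARID3B. No share of all genes is given for such pairs.

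The RNA-binding members were closer to 0. The IGF2BP proteins bind messages such as those of IGF2 and MYC and protect them from decay. IGF2BP3 had non-induced levels of 11.80, 11.80, 12.04, 11.78 and 11.82, and its induced levels ran from 11.53 through 11.68 to 12.16. A single induced sample, number 5, was above all non-induced samples, and the other 5 were below all of them. The difference was -0.11 ± 0.13 (SE, limma adjusted p = 0.726, exact permutation p = 0.357), or 92.7% of the non-induced level (95% interval 76.1 to 113%).

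IGF2BP2 had non-induced levels of 11.31, 11.49, 11.88, 11.21 and 11.41 and induced levels from 10.81 through 11.23 to 12.34. Its highest value was again in dox-induced sample 5, and the SD was 0.26 (n = 5) without induction and 0.55 (n = 6) with it. The difference was -0.14 ± 0.23 (SE, limma adjusted p = 0.802, exact permutation p = 0.604), or 90.5% of the non-induced level (95% interval 64.1 to 128%). Without dox-induced sample 5 the IGF2BP2 difference was -0.35 (limma adjusted p = 0.251) and that of IGF2BP3 -0.19 (limma adjusted p = 0.377). Without non-induced sample 3 they were -0.04 and -0.06, and without both samples -0.24 and -0.15.

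IGF2BP1 had 1 probe, which was detected on 2 of the 5 arrays without doxycycline and on 2 of the 6 with it. Its raw intensity ran from 89.6 to 153 with the highest value in non-induced sample 1, so it was not well above background in either group and no fold is given.

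TRIM71, also called LIN41, is a tripartite motif protein that binds RNA and was among the earliest let-7 targets known from Caenorhabditis elegans. The probe above background had levels of 11.11, 10.86, 11.40, 11.51 and 11.59 without induction and from 10.75 through 10.99 to 11.54 with it. The groups overlapped, with 1 of 6 induced samples below all non-induced samples. The difference was -0.20 ± 0.18 (SE, limma adjusted p = 0.606, exact permutation p = 0.303), or 87.0% of the non-induced level. The other TRIM71 probes were detected in 1 sample of each group and in none.

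The chromatin members HMGA1 and ARID3B had differences close to 0 and of opposite sign. HMGA1 and HMGA2 are AT-hook proteins that bend DNA and open chromatin. HMGA1 had levels of 12.35, 12.40, 13.74, 12.82 and 12.81 without induction and from 12.12 through 12.68 to 13.32 with it. Non-induced sample 3 was the highest of all 11 samples, and the groups overlapped over most of their range. The difference was -0.14 ± 0.25 (SE, exact permutation p = 0.636), or 90.8% of the non-induced level (95% interval 62.3 to 132%). It was 0.09 without non-induced sample 3, so the sign rested on that sample. The other 2 HMGA1 probes were detected on no array.

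HMGA2 had 2 probes. One was detected only in dox-induced sample 1 (lowest detection p 0.00527, raw intensity 78.6 to 113.4 over the 11 arrays) and the other on no array, so HMGA2 was not well above background in either group.

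ARID3B is a DNA-binding protein with an AT-rich interaction domain. It was the single measured member with a difference above 0, at 0.08 ± 0.17 (SE, limma adjusted p = 0.852, exact permutation p = 0.623), or 106% of the non-induced level (95% interval 82.5 to 136%). The non-induced levels were 11.84, 12.15, 11.33, 12.07 and 12.18, and the induced levels ran from 11.57 through 12.07 to 12.18. The lowest values were in non-induced sample 3 and dox-induced sample 5. Without non-induced sample 3 the difference was -0.06.

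No member had groups that did not overlap, where 2.16% of all probes had such groups. The sample values show how the genes varied beside one another. The number of the 8 genes above their own median over the 11 samples was 4, 6, 7, 2 and 8 in non-induced samples 1 to 5, and 1, 2, 2, 2, 4 and 1 in dox-induced samples 1 to 6. Non-induced sample 4 thus stood with the induced samples, and dox-induced sample 5 held as many high members as non-induced sample 1. The median deviation over the 8 genes was highest in non-induced sample 3, at 0.28, and lowest in dox-induced sample 3, at -0.25. The members with the most spread over the 11 samples were HMGA1 (SD 0.48), IGF2BP2 (SD 0.43) and CDK6 (SD 0.39), and IGF2BP3 had the least (SD 0.18).

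**Figure D2:**
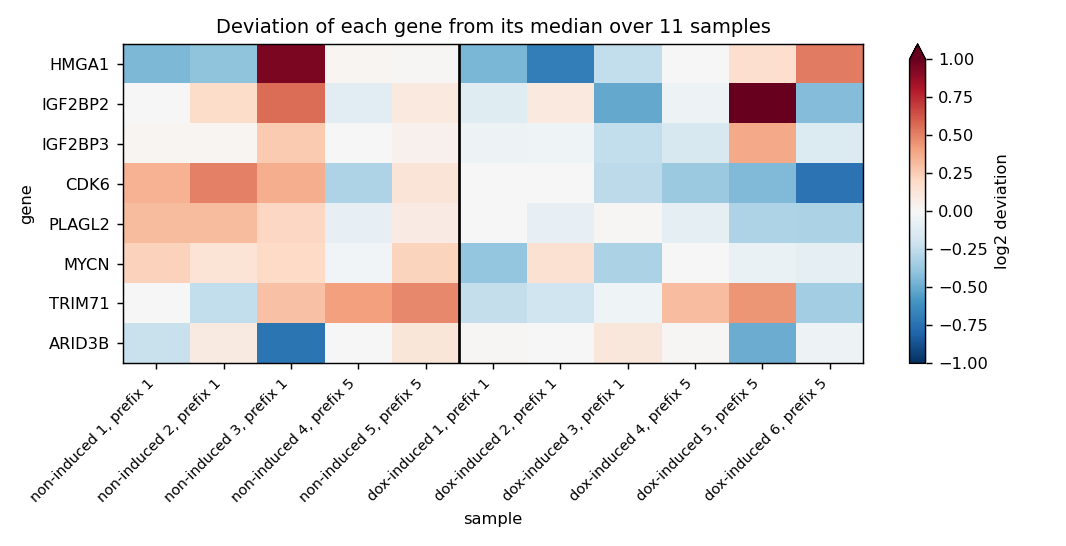
Deviation (log2) of each of the 8 measured let-7 targets from its own median over the 11 samples, one column per sample, with red above and blue below the median and a line between the groups. Non-induced sample 3 and dox-induced sample 5 share high IGF2BP2 and IGF2BP3 and low ARID3B; IGF2BP2 reached 1.03 in dox-induced sample 5, past the end of the scale.

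Within title prefix 1, 7 of the 8 genes had an effect of induction below 0, against 50.0% of all genes, and their median was -0.34 against 6e-04 over all genes. CDK6 (-0.49 ± 0.18, SE, limma adjusted p = 0.113) and the brighter MYCN probe (-0.38 ± 0.17, SE, limma adjusted p = 0.207) were past an unadjusted p of 0.05, where 24.0% of all probes were. The dimmer MYCN probe had the lowest adjusted p in prefix 1, at -0.66 ± 0.21 (SE, limma adjusted p = 0.0785). No member probe passed the adjusted threshold in prefix 1, where 4.87% of all probes passed. The marker medians were also below 0 in prefix 1, at -0.30 for the 8 embryonal carcinoma markers and -0.67 for the 3 markers of differentiated cells, against 0.13 and -0.18 in prefix 5, and their part was not tested. The share of all probes past the threshold in prefix 1 rested on single samples, since 698 probes passed in all and 1, 3 and 2 passed without non-induced sample 1, dox-induced sample 1 and dox-induced sample 3.

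Within title prefix 5, 5 of the 8 genes had an effect below 0, against 48.4% of all genes, with a median of -0.19 against 0.0093 over all genes. CDK6 was at -0.42 ± 0.20 (SE, limma adjusted p = 0.84), TRIM71 at -0.31 ± 0.24 (SE) and PLAGL2 at -0.24 ± 0.17 (SE). When single samples were left out, these ran from -0.64 to -0.20 for CDK6, with the ends without non-induced samples 4 and 5, from -0.47 to -0.07 for TRIM71, with the ends without dox-induced samples 5 and 6, and from -0.32 to -0.16 for PLAGL2. None of the 8 was past an unadjusted p of 0.05, where 5.89% of all probes were, and 0 of all probes passed the adjusted threshold (0%). Prefix 5 held 2 non-induced samples, so its effects had wider errors than those of prefix 1.

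CDK6 and PLAGL2 were below 0 with induction in both prefixes. CDK6 went from a mean of 8.94 to 8.45 in prefix 1 and from 8.44 to 8.02 in prefix 5, and PLAGL2 from 9.59 to 9.28 and from 9.30 to 9.07. HMGA1 went from 12.83 to 12.34 in prefix 1 and from 12.82 to 13.03 in prefix 5, and ARID3B from 11.78 to 12.11 and from 12.12 to 11.89. IGF2BP2, IGF2BP3 and the dimmer MYCN probe were also below 0 in prefix 1 and above 0 in prefix 5. Without non-induced sample 3 the HMGA1 effect in prefix 1 was -0.04, and without dox-induced sample 5 the IGF2BP2 and IGF2BP3 effects in prefix 5 were -0.24 and -0.17.

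These opposite signs were not shown to differ. The difference of the effects, prefix 5 minus prefix 1, was largest for the dimmer MYCN probe, at 0.91 ± 0.31 (SE, limma adjusted p = 0.318), then HMGA1, at 0.71 ± 0.46 (SE, limma adjusted p = 0.544), IGF2BP2, at 0.61 ± 0.47 (SE, limma adjusted p = 0.596), and ARID3B, at -0.57 ± 0.32 (SE, limma adjusted p = 0.482). The HMGA1 value ran from 0.25 to 0.95 and the IGF2BP2 value from 0.19 to 0.91 when single samples were left out, the low ends without non-induced sample 3 and dox-induced sample 5. Over the 9 probes the adjusted p of the difference lay between 0.318 and 0.939, where 0.0209% of all probes passed. For CDK6 the difference was 0.07 ± 0.27 (SE), an error too wide to show that the prefixes acted alike.

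**Figure D3:**
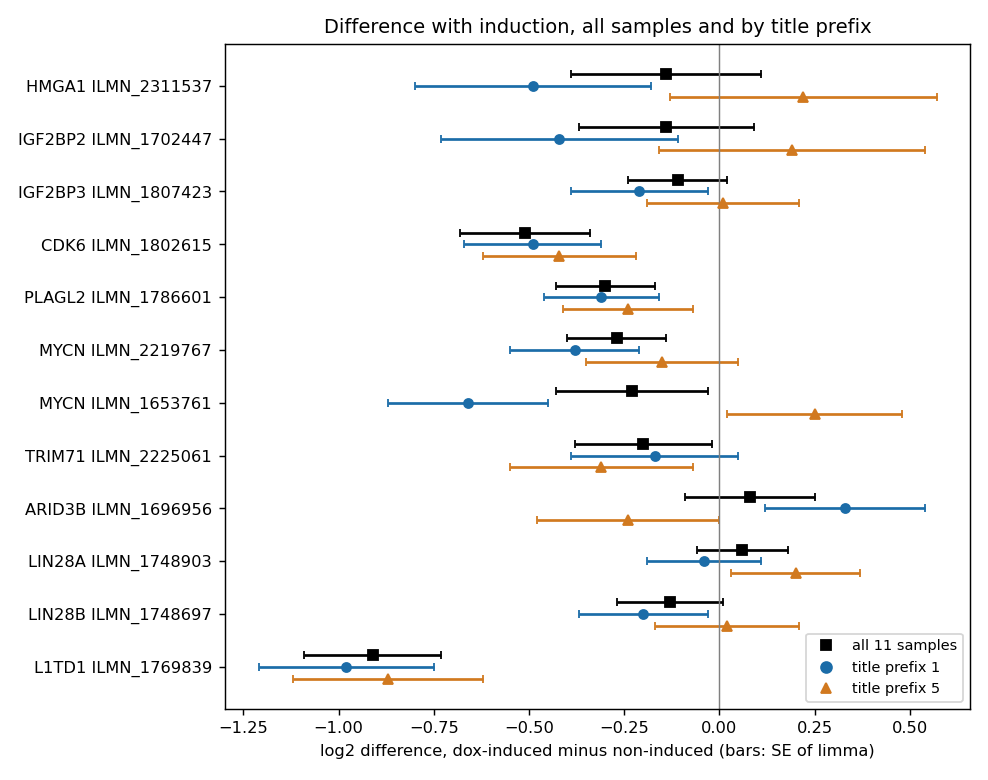
Log2 difference, dox-induced minus non-induced, of the let-7 target probes, LIN28A, LIN28B and L1TD1, with black squares for all 11 samples, blue circles for title prefix 1, orange triangles for prefix 5 and bars for the SE of limma. CDK6, PLAGL2, TRIM71 and the brighter MYCN probe lie below 0 in all 3 estimates, while HMGA1, IGF2BP2, IGF2BP3, ARID3B and the dimmer MYCN probe change sign between prefixes.

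The levels of the members were also set side by side between the prefixes. With induction in the model, the log2 difference of prefix 5 minus prefix 1 was -0.46 ± 0.13 (SE, limma adjusted p = 0.224) for CDK6 and -0.24 ± 0.11 (SE, limma adjusted p = 0.428) for PLAGL2. For TRIM71 it was 0.35 ± 0.16 (SE, limma adjusted p = 0.427). These 3 of 8 genes were past an unadjusted p of 0.05, where 11.4% of all probes were, and none passed the adjusted threshold, which 0.0767% of all probes did. The CDK6 gap between prefixes was about the size of its difference with induction, and with prefix as a covariate CDK6 was at -0.46 with induction (limma adjusted p = 0.13) and PLAGL2 at -0.28 (limma adjusted p = 0.23).

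The regulators of let-7 were read next. LIN28A was detected in every sample at levels from 13.47 to 13.87 without induction and with a median of 13.68 with it, a difference of 0.06 ± 0.12 (SE, limma adjusted p = 0.849). LIN28B had a difference of -0.13 ± 0.14 (SE, limma adjusted p = 0.693). Of 16 genes that process let-7 or act with it, from DROSHA to the Argonautes, 14 were measured, of which 6 were lower and 8 higher, with a median of 0.02 and a range of -0.21 to 0.30. Among all measured genes 48.3% were lower. DIS3L2, the nuclease that degrades uridylated let-7 precursors, was the 1 gene of 14 past an unadjusted p of 0.05, where 16.2% of all probes were. It went from 7.19 ± 0.13 (SD, n = 5) to 7.50 ± 0.11 (SD, n = 6), a difference of 0.30 ± 0.12 (SE, limma adjusted p = 0.222). The Argonaute genes AGO3 (0.30 ± 0.17, SE, limma adjusted p = 0.387) and AGO1 (-0.21 ± 0.16, SE, limma adjusted p = 0.534), whose proteins carry microRNAs to their targets, differed in sign. None of the 14 passed the adjusted threshold.

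A wider list of 26 let-7 targets that are not among the 10 had a probe for 23, and 18 were measured. Of these 11 were lower and 7 higher, where 48.3% of all genes were lower, with a median of -0.14 (0.0098 over all genes) and a range of -0.54 to 0.32. The 4 of 18 past an unadjusted p of 0.05 were all lower, where 8.31% of all probes were past it and lower, and none passed the adjusted threshold. RRM2, a subunit of ribonucleotide reductase that makes deoxynucleotides for DNA synthesis, went from 9.40 ± 0.11 (SD, n = 5) to 8.86 ± 0.24 (SD, n = 6). All 6 induced samples were below all non-induced samples, where 2.16% of all probes had groups that did not overlap, in either direction. The RRM2 difference was -0.54 ± 0.14 (SE, limma adjusted p = 0.108). HRAS, a small GTPase of growth signalling, was at -0.42 ± 0.16 (SE, limma adjusted p = 0.209), and CDC25A, a phosphatase that activates cyclin-dependent kinases, at -0.38 ± 0.15 (SE, limma adjusted p = 0.244) with both of its kept probes below 0. SALL4, a zinc finger factor of pluripotent cells that is also among the embryonal carcinoma markers, was at -0.29 ± 0.13 (SE, limma adjusted p = 0.294). The highest difference was that of MYC, at 0.32 ± 0.24 (SE, limma adjusted p = 0.547). Within the prefixes the median of the wider list was -0.07 in prefix 1 and -0.10 in prefix 5. LIN28B and DICER1 stand in both of these lists.

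**Figure D4:**
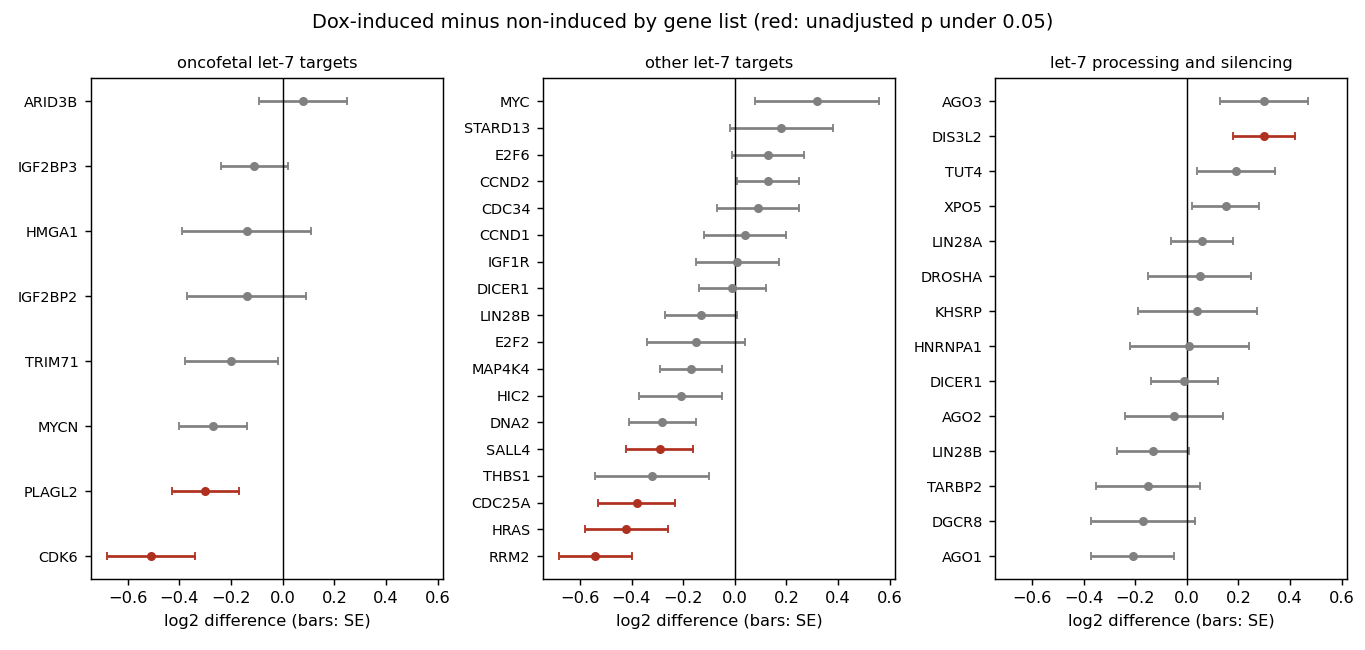
Log2 difference, dox-induced minus non-induced, with its SE for the 8 measured oncofetal let-7 targets (left), 18 other let-7 targets (middle) and 14 genes of let-7 processing and silencing (right), sorted within each panel, with red for an unadjusted p under 0.05. The red genes are CDK6, PLAGL2, RRM2, HRAS, CDC25A and SALL4, all below 0, and DIS3L2, above 0; none passed the adjusted threshold.

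Of the 8 measured let-7 targets HMGA1 varied most between samples, and 3 of the 9846 genes ranked were most like it over the 11 samples. They were MAZ, a zinc finger transcription factor (Pearson's r = 0.962, Spearman's rho = 0.909), IGFBP4, a secreted binding protein of insulin-like growth factors (r = 0.949, rho = 0.927), and SLC35B2, a Golgi transporter of the sulfate donor for glycan sulfation (r = 0.948, rho = 0.918). Without non-induced sample 3, in which HMGA1 was highest, the r values were 0.933, 0.904 and 0.898. The points share arrays and normalization, and the genes were chosen for these correlations, which are descriptions.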

How the data were processed

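Total RNA of 11 NT2D1 samples was amplified to biotin-labelled cRNA for Illumina bead arrays, per the labels' protocols. In the deposited table of raw values each probe has an intensity and a detection p-value per array, per the file headers. A second table by the authors holds the intensity after quantile normalization, as its values show. Limma is the tool given in the submitters' processing notes, with no version.

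Raw intensities were normalized in R 4.3.3 by the neqc function of limma 3.58.1 (with statmod 1.5.0), with background estimated from the detection p, an offset of 16, log2 and quantile normalization. Probes detected at p below 0.01 on 5 or more arrays were kept, which left 14338, of which 12341 had 1 gene symbol. Gene symbols came from GEO's platform annotation, in which 28098 probes had 1 symbol, 13 had several and 20692 were unnamed here. A gene was counted by its brightest kept probe.

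Groups were compared with limma over all kept probes, two-sided, and called where the p after Benjamini-Hochberg adjustment was under 0.05, fitted on all 11 samples with no other term. Models with group, title prefix and their interaction, and with group and prefix, gave the prefix results. Single values were compared with an exact permutation test over the 462 splits, whose smallest p is 0.00216. Its p-values are unadjusted, and no share over all probes is given for it. P-values set a difference against the spread between these samples, taken as independent. The permutation splits took account of neither title prefix nor replicate number. The code was tested on simulated data.

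Samples with the same replicate number share a title prefix. Their title numbers differ by 9 in each pair of prefix 1 and by 11 in each pair of prefix 5. A regular step of this kind could mark samples of 1 clone, but no label states that the number is the clone. Deviations of the 5 same-numbered pairs correlated between -0.194 and 0.4, over 0.1 in 1 pair, which does not show that the samples were unpaired. The number was not used as a block in the main comparison, whose p-values ignore any pairing, and is given as an alternative.

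The 10 genes, the lists and the tests were chosen with earlier results of these data known. Named were all 10 genes with each probe, L1TD1, LIN28A and LIN28B, the 4 other let-7 targets and the 3 let-7 processing genes with the smallest p, and the 3 genes most correlated with the member of largest SD; MYC, named for the end of its list's range, was chosen after its value was seen. No gene coordinates are given, since the platform's build is not given in the sources used here. MicroRNA sequences and positions are those of RefSeq on GRCh38.p14.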

Additional observations from a re-analysis of the deposited data

Results flagged for a closer look

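In 4 of the 38 groups of samples examined for the let-7 targets and regulators, 1 sample lay far from the others of its group by Dixon's ratio (its gap to the nearest sample over the group's range), where chance gives about 1 in 20. For IGF2BP3, non-induced sample 3 was highest at 12.04 with the next at 11.82 (ratio 0.837), and dox-induced sample 5 was highest at 12.16 with the next at 11.74 (ratio 0.66). For the dimmer MYCN probe, non-induced sample 3 was highest at 10.12 with the next at 9.54 (ratio 0.76). For ARID3B, dox-induced sample 5 was lowest at 11.57 with the next at 12.01 (ratio 0.728). All 4 values came from the pair of samples across the groups whose deviations were most alike over all probes.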

How the results depend on the processing

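None of the 8 measured let-7 targets passed the adjusted threshold under any of the 21 alternatives run for the comparison over all samples, and IGF2BP2, IGF2BP3, CDK6, PLAGL2, MYCN and TRIM71 kept the direction in all 21. CDK6 ran from -0.63 to -0.42 (limma adjusted p 0.1 to 0.397) and PLAGL2 from -0.36 to -0.25 (0.19 to 0.499). The members' median difference ran from -0.27 to -0.12. Between single samples within the groups, the members' median deviation had an SD of 0.12, which is not the error of that difference. HMGA1 reversed to 0.09 and ARID3B to -0.06 without non-induced sample 3. With dox-induced sample 5 left out as well as non-induced sample 3, an alternative chosen after seeing the data, HMGA1 was at 0.03, LIN28B at 0.02 and CDK6 at -0.44. Other limits are the 2 non-induced samples of prefix 5 and probes near background.

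The number of probes past the threshold over all samples, 6, was 17 with the authors' quantile-normalized values, 17 without background correction, 1 without a detection filter, 13 with detection on all 11 arrays, 31 with array weights and 1 without both samples named above. With the replicate number as a block it was 0 when fixed (2004 at an unadjusted p under 0.05) and 21 when random, and the members' median was -0.20 and -0.17. Number 6 had only an induced sample, so the fixed block in effect left that sample out. Leaving out dox-induced sample 6 with no block also gave 0 probes and a median of -0.20. Whether the number pairs the samples is not settled: of the 5 non-induced samples, 1 had its highest correlation with the induced sample of the same number. Leaving out 1 sample at a time gave 0 to 26 probes: 0 without non-induced 1, 3 or 4 or dox-induced 1, 3 or 6, 1 without non-induced 5, and 26, 16 and 21 without dox-induced 2, 4 and 5. In the same way the count gave 1 to 1138 in prefix 1, 0 to 1 in prefix 5, 0 to 4 for the difference of the effects and 4 to 20 for the level between prefixes, and the difference of the effects had 0 with the authors' values. The cause was not tested.

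Leaving out 1 sample at a time gave, for the effect in prefix 5, -0.24 to 0.49 for IGF2BP2, -0.17 to 0.10 for IGF2BP3 and -0.27 to -0.02 for the brighter MYCN probe, and for HMGA1 in prefix 1 -0.73 to -0.04. For the difference of the effects it gave -0.15 to 0.29 for CDK6, -0.01 to 0.15 for PLAGL2 and -0.29 to 0.10 for TRIM71. For prefix 5 against 1 in level it gave -0.16 to 0.21 for IGF2BP2, -0.06 to 0.08 for IGF2BP3, -0.03 to 0.10 for the brighter MYCN probe and -0.08 to 0.14 for ARID3B. For HMGA1 and ARID3B over all samples it gave -0.27 to 0.09 and -0.06 to 0.17. L1TD1 passed with the authors' values and without background correction (-0.75, adjusted p 0.0435 in each), with array weights (-0.90, adjusted p 0.0453) and without dox-induced sample 5 (adjusted p 0.0351). The authors' values and those without background correction gave almost the same fit. In these fits 2395 and 2397 probes had an unadjusted p under 0.05, so they are not separate evidence.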
